A study of Rattus norvegicus with 12 samples.

Results

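This comparison sets rat Schwann cells that were cultured with macrophages that BxPC-3, a human pancreatic cancer line, had induced (BxTAM) against the same cells cultured with monocyte-derived macrophages for which the labels name no cancer line (MDM). Its members are 6 of the 12 libraries of the series, 3 with BxTAM and 3 with MDM, chosen by their sample labels, and all 12360 of 30957 annotated genes that passed a filter on low counts in the fit of all 12 libraries. The 2 other groups, used here only to place a level, are untreated Schwann cells alone, whose titles read Rsc96, the name of an immortalised rat Schwann cell line, and Schwann cells with macrophages induced by the line MIA PaCa-2 (MiaTAM), with 3 libraries each. The description labels and count columns of the untreated cells read HSC96 instead, and the columns were matched through these labels. The series title says that the macrophages were induced with supernatants of the cancer lines, so no cancer cell is named as part of a co-culture. The design text counts 1 more kind of TAM, which is not analysed here. The labels name rat for every sample, give no species for the macrophages and no strain, age, time or cell ratio, and carry the treatment entry "untreated" for the MDM libraries too. The MDM libraries are titled PBMC, the usual name for mononuclear blood cells, and carry MDMs in their source name. The labels do not say whether a group's 3 libraries stem from separate cultures, so a p-value here measures spread between samples that may be technical replicates.

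Schwann cells wrap and support the axons of peripheral nerves, and after injury they divide, secrete chemokines and cytokines, recruit macrophages and remodel the matrix around the nerve. In pancreatic cancer, nerves are invaded often, and both Schwann cells and macrophages gather at the invaded nerve. Macrophages that tumour cells have conditioned are called tumour-associated macrophages (TAM), and they differ from monocyte-derived macrophages in the cytokines, growth factors and metabolites they release. RNA was measured by mRNA sequencing and is given as CPM, the counts of a gene brought to a common library total with TMM scaling, which makes libraries comparable but not genes of different length. Changes are log2 fold changes ± standard error for 3 libraries against 3, levels are given per library or as mean ± SD (n = 3), and a gene was called when edgeR's quasi-likelihood test gave it an adjusted p (Benjamini-Hochberg over 12360 genes) under 0.05.

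The 6 libraries held 17400979 to 21506669 counts each, the other 6 held 16555215 to 19351476, and scaling factors ran from 0.980 to 1.014. No library was a repeat of another, and genes with at least 1 count numbered 14790 to 15021 in the 6 libraries. Of 20 macrophage markers on the list, 4 were expressed enough to be tested, 17 stayed under 1 CPM in every group and 3, C1qa, Marco and Tyrobp, had no count in any of the 12 libraries. Their summed level was 8.67 to 10.4 CPM in cells alone, 13.6 to 15.3 CPM with MDM, 17.1 to 18.1 CPM with BxTAM and 19.6 to 20.6 CPM with MiaTAM. Csf1r, the receptor of the macrophage growth factor CSF1, stood at 5.94, 5.79 and 5.32 CPM with MDM and at 8.16, 7.02 and 7.91 CPM with BxTAM (log2 change 0.44 ± 0.12, adjusted p = 0.00582). Cd14, a monocyte surface receptor, did not pass the test (7.09, 6.13 and 5.93 CPM against 7.51, 7.48 and 5.93 CPM, log2 change 0.13 ± 0.13, adjusted p = 0.454). Over the 4 tested markers, 1 was called higher and 0 lower against MDM, with log2 changes from 0.08 to 0.92 (median 0.29). The largest of these changes, in a marker not named here, was not called. Against cells alone, 3 of the 4 were called higher with BxTAM and 0 lower. Whether macrophage RNA adds to any change below was not tested, and in such bulk samples fewer cells of a type and less RNA per cell cannot be told apart. Genes that most cells use, such as the chaperone gene Hsp90aa1 and the myosin gene Myh9, are listed at 0 in all 12 libraries, so a gene at 0 in this table need not be absent. The defining Schwann markers were at or near 0: Sox10, the lineage's central transcription factor, had 1 count in 12 libraries, and S100b had 8 counts in the 3 MDM libraries and 14 in the 3 BxTAM libraries. Of 14 Schwann markers found in the annotation 9 were tested, with 1 higher and 3 lower. Ncam1, an adhesion molecule of immature and non-myelinating Schwann cells, fell from 196 ± 16.2 to 138 ± 3.62 CPM (log2 change -0.51 ± 0.05, adjusted p = 4.4e-07), and Egr2, the myelination factor, fell from 12.9 ± 1.51 to 8.22 ± 0.465 CPM (log2 change -0.64 ± 0.10, adjusted p = 4.5e-05). Ngfr, the low-affinity neurotrophin receptor of repair Schwann cells, fell from 2.16 ± 0.692 to 0.815 ± 0.196 CPM (log2 change -1.43 ± 0.34, adjusted p = 0.00245), while Gfap, an intermediate filament of immature Schwann cells, did not pass the test at 1.22 ± 0.222 and 1.33 ± 0.332 CPM (log2 change 0.12 ± 0.25, adjusted p = 0.753). Pmp22, a peripheral myelin protein gene, was the 1 higher marker (0.18 ± 0.04).

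Of the 12360 genes tested, 4291 were called between BxTAM and MDM co-culture, which is 34.7% of all. The calls were balanced: 2153 genes (17.4%) were higher and 2138 genes (17.3%) lower with BxTAM. Most changes were small. The median absolute log2 change of the called genes was 0.28, and 1901 of them, or 44.3%, differed by under 1.2-fold. Past 1.5-fold there were 250 higher and 391 lower genes, and past 2-fold 89 higher and 127 lower genes. The counts that follow for each group of genes are to be read against these shares, and a median log2 change against that of all tested genes, -0.002. Groups without overlap were common: 3796 of the 4291 called genes had them along with a usable symbol and 1 CPM in the higher group. Many genes below were picked by their small p in this same comparison, so a lack of overlap adds nothing to their call.

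**Figure D1:**
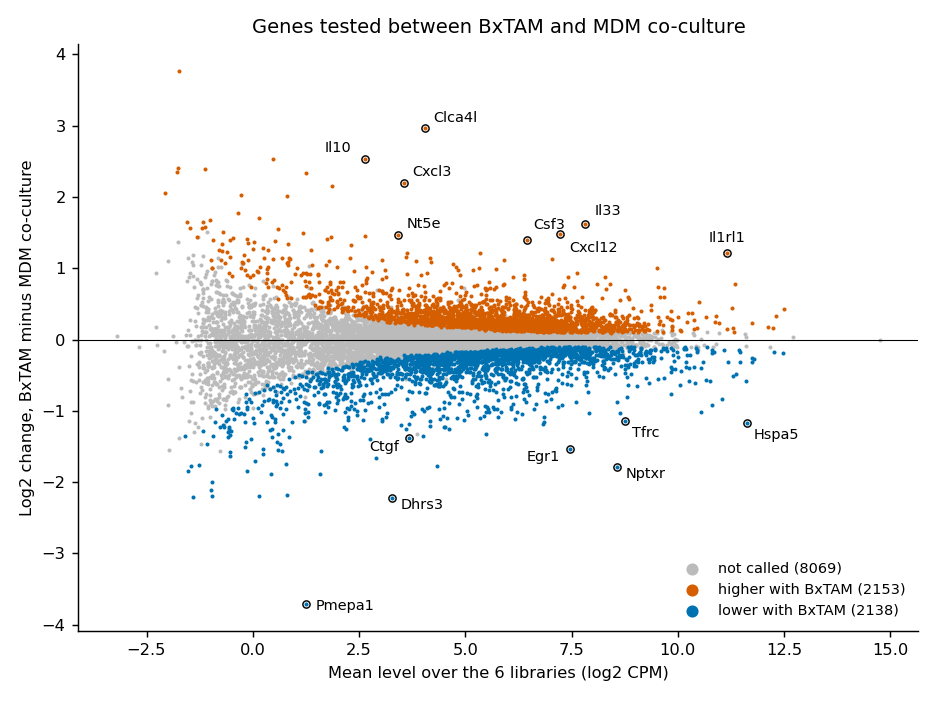
Log2 change of each of the 12360 tested genes between BxTAM and MDM co-culture (y axis) against its mean level over the 6 libraries (x axis, log2 CPM). Grey points did not pass the test, coloured points did (orange higher, blue lower with BxTAM), and labels mark genes described in the text; Il33, Cxcl12 and Clca4l lie among the largest rises, and Nptxr, Egr1 and Hspa5 lie among the falls toward the right of the plot.

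Among called genes that carried a usable symbol, reached 1 CPM in the group where they were higher and separated the 6 libraries, the largest rise was that of Clca4l, of the family of calcium-activated chloride channel regulators (chr2:250785534-250805445 in Rnor_6.0, the build of the counts). Its 3 MDM libraries stood at 4.09, 4.03 and 3.17 CPM and its 3 BxTAM libraries at 29.5, 30.1 and 28.1 CPM (log2 change 2.97 ± 0.10, adjusted p = 7.9e-15). Cells alone stood between the groups, at 17.7 ± 1.46 CPM. Il10, an anti-inflammatory cytokine gene, stood at 1.44, 1.76 and 2.19 CPM with MDM and 9.71, 9.66 and 12.4 CPM with BxTAM (2.53 ± 0.16 on the log2 scale). Slc17a6, a vesicular glutamate transporter, had 0.231, 0.511 and 0.467 CPM with MDM and 2.25, 2.47 and 2.42 CPM with BxTAM (2.53 ± 0.26). For both, the MDM libraries were the low ones, and cells without macrophages stood near BxTAM, at 10.3 ± 0.687 CPM for Il10 and 2.07 ± 0.141 CPM for Slc17a6. Further large rises were those of Sult1c2a, a sulfotransferase (2.33 ± 0.25), Klhl41 (1.78 ± 0.33), Naip6, an inflammasome sensor gene (1.71 ± 0.29), Il19, a cytokine of the IL-10 family (1.55 ± 0.23), the lipid transporter Abca12 (1.49 ± 0.25), the tenascin Tnn (1.44 ± 0.19) and the membrane serine protease Tmprss11f (1.41 ± 0.17). These 7 genes ran from 0.227 to 5.98 CPM over the 6 libraries. Nt5e, which encodes the adenosine-forming ecto-nucleotidase CD73, was among the 15 largest rises too, and its level with BxTAM lay well above that of cells alone. It had 4.56, 6.08 and 6.25 CPM with MDM, 17.4, 15.4 and 13.9 CPM with BxTAM (log2 change 1.46 ± 0.11, adjusted p = 2.9e-09) and 3.14 ± 0.108 CPM in cells alone.

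The largest fall was that of Pmepa1, a membrane protein gene that TGF-beta induces and that dampens TGF-beta signalling (chr3:171294856-171342646, Rnor_6.0). It stood at 4.56, 4.71 and 4.06 CPM with MDM and at 0.376, 0.460 and 0.165 CPM with BxTAM, a total of 249 counts against 18 (log2 change -3.71 ± 0.27, adjusted p = 5.0e-09). Cells alone had no Pmepa1 count, which allows up to 0.0540 CPM (3 counts over the 3 libraries, counting error only), and MiaTAM co-culture stood between both groups at 2.37 ± 0.453 CPM. Nptxr, the neuronal pentraxin receptor gene (chr7:121011680-121029754, Rnor_6.0), carried the most counts of the 15 largest falls, with 579, 599 and 587 CPM in the MDM libraries and 170.5, 178 and 163 CPM in the BxTAM libraries (log2 change -1.79 ± 0.05, adjusted p = 2.6e-16). No library of a group came near the other, and cells alone were lower still at 91.6 ± 2.89 CPM. Dhrs3, which reduces retinaldehyde, fell from 15.9 ± 0.881 to 3.42 ± 0.364 CPM (log2 change -2.22 ± 0.13, adjusted p = 3.2e-11), and the potassium channel gene Kcnh6 from 4.71 ± 0.136 to 1.28 ± 0.319 CPM (-1.88 ± 0.18). Fa2h, whose enzyme makes the hydroxylated fatty acids of myelin lipids, fell from 1.42 ± 0.358 to 0.387 ± 0.0482 CPM (-1.84 ± 0.34). The other large falls were those of Olfm1 (-2.20 ± 0.41), Tmem176b (-1.88 ± 0.27), Trim17 (-1.71 ± 0.28), Sec1 (-1.64 ± 0.33), Actn3 (-1.60 ± 0.28), Padi2 (-1.58 ± 0.43), Fbxl13 (-1.57 ± 0.19) and the histone gene Hist3h2ba (-1.75 ± 0.27). These 8 genes ran from 0.173 to 5.08 CPM over the 6 libraries. Slx4ip and Taf9 were uneven between libraries of a group. Slx4ip had 3.11, 2.10 and 3.31 CPM with MDM and 0.590, 0.748 and 0.549 CPM with BxTAM (log2 change -2.18 ± 0.61, adjusted p = 0.0084), and limma on log2(FPKM + 1) did not call it. Padi2 was not called without MDM library 3 (-1.28). Taf9 had 39.6, 13.4 and 39.9 CPM with MDM and 6.71, 10.1 and 10.4 CPM with BxTAM (log2 change -1.78 ± 0.41, adjusted p = 0.00212), and its level in cells alone was uneven too, at 16.8, 52.5 and 14.3 CPM.

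Interleukin-33 is an alarmin of the IL-1 family that stromal cells release when damaged. Its receptor ST2 is encoded by Il1rl1. Both genes rose with BxTAM. They lie at chr1:248132090-248147029 for Il33 and chr9:47134034-47182170 for Il1rl1 (Rnor_6.0). Il33 had 113, 109 and 110.3 CPM in the MDM libraries and 338, 359 and 325 CPM in the BxTAM libraries (log2 change 1.62 ± 0.05, adjusted p = 8.6e-16). Il1rl1 had 1461, 1389 and 1268 CPM with MDM and 3170, 3175 and 3194 CPM with BxTAM, a 2.32-fold difference (log2 change 1.21 ± 0.05, adjusted p = 3.9e-13). For both, every BxTAM library lay above every library of cells alone, which held 218, 213 and 228 CPM of Il33 and 2001, 1893 and 2022 CPM of Il1rl1, while every MDM library lay below them. Of 17 tested genes of the IL-1 family list, 9 were higher and 1 lower, and the median change was 0.20. Among the ligands and antagonists, Il1rn, the IL-1 receptor antagonist, rose from 18.4 ± 1.97 to 30.4 ± 3.79 CPM (log2 change 0.72 ± 0.09, adjusted p = 3.2e-06). Among the receptors, Il18rap, the accessory chain of the IL-18 receptor, rose from 59.2 ± 1.98 to 107 ± 4.37 CPM (0.85 ± 0.05), and Il1r1, the signalling receptor of IL-1, rose from 89.5 ± 1.89 to 112 ± 3.43 CPM (0.33 ± 0.05). The 1 lower member was Irak1, a kinase of the pathway (-0.17 ± 0.04), named here after its value was seen.

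Chemokines are secreted attractants of leukocytes. Of 33 matched chemokine genes, 14 had no count in any library and 10 were tested, of which 7 were higher and 1 lower with BxTAM (median 0.52). The tested genes of neutrophil attractants, Cxcl1, Cxcl3 and Cxcl6, were all higher. Cxcl1 stood at 83.9, 82.2 and 79.6 CPM with MDM and 175, 189 and 175 CPM with BxTAM (log2 change 1.13 ± 0.05, adjusted p = 3.5e-12). Cxcl3 had 4.24 ± 0.798 CPM and 19.1 ± 2.95 CPM (log2 change 2.19 ± 0.15, adjusted p = 7.9e-10), and Cxcl6 had 1.33, 1.48 and 1.21 CPM and 6.17, 5.46 and 6.15 CPM (log2 change 2.15 ± 0.20, adjusted p = 3.9e-08). In each of these genes every BxTAM library was above every MDM library. Cells alone held 232 ± 19.7 CPM of Cxcl1, 15.3 ± 2.52 CPM of Cxcl3 and 8.59 ± 0.714 CPM of Cxcl6. Cxcl12, the ligand of Cxcr4 that guides immune, stem and tumour cells (chr4:149261044-149273891, Rnor_6.0), had 82.1, 75.1 and 80.3 CPM with MDM and 216, 226 and 220.2 CPM with BxTAM (log2 change 1.48 ± 0.04, adjusted p = 3.2e-16). Cells alone were at 234, 236 and 234 CPM, so the MDM libraries were the low ones. Cxcl10, an interferon-induced attractant of T cells, was the 1 chemokine gene that fell. Cxcl11 and Cx3cl1 did not pass the test (-0.37 ± 0.37 and -0.19 ± 0.08), and Ccl2, Ccl7 and Cxcl16 were the other higher ones (0.44 ± 0.08, 0.61 ± 0.14 and 0.32 ± 0.06), all 5 named after their values were seen. Cxcl10 held 38.2, 37.6 and 37.2 CPM with MDM and 22.6, 22.4 and 22.5 CPM with BxTAM (log2 change -0.74 ± 0.06, adjusted p = 3.8e-09), and cells alone overlapped the MDM libraries at 36.6, 38.9 and 39.1 CPM.

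NF-kappaB is held in the cytoplasm by inhibitor proteins, and several of those inhibitors are also transcribed by NF-kappaB itself, as feedback. Of 32 tested genes of NF-kappaB subunits, inhibitors and upstream factors, 13 were higher and 1 lower with BxTAM (median 0.12). Nfkbia, which encodes the inhibitor IkappaB-alpha, had 36.0, 34.0 and 36.3 CPM with MDM and 70.2, 76.0 and 65.0 CPM with BxTAM (log2 change 0.99 ± 0.06, adjusted p = 1.8e-10). Zc3h12a, an RNase that degrades cytokine mRNAs, had 35.1, 35.0 and 33.5 CPM and 63.0, 60.2 and 57.9 CPM (log2 change 0.81 ± 0.06, adjusted p = 1.2e-09). Nfkbiz, a nuclear cofactor of the pathway, had 18.1, 16.3 and 17.1 CPM and 31.7, 25.5 and 31.9 CPM (log2 change 0.79 ± 0.09, adjusted p = 6.4e-07). None of the 3 genes had overlapping groups, and for Zc3h12a and Nfkbiz the MDM libraries sat beside cells alone, at 36.2 ± 2.50 and 16.3 ± 0.910 CPM. Tnfaip3, the ubiquitin-editing inhibitor A20, rose from 12.9 ± 0.617 to 20.3 ± 0.703 CPM (0.66 ± 0.08), and its partner Tnip1 from 179 ± 4.85 to 245 ± 6.16 CPM (0.45 ± 0.04). The lower member was Birc2, a ubiquitin ligase upstream of NF-kappaB (-0.24 ± 0.08), named after its value was seen and not called without BxTAM library 2 (-0.15) or without MDM library 1 (-0.19) or 2 (-0.22).

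Promoter stretches of 4 genes that rose and of the 1 chemokine gene that fell are shown because all carry a match to the NF-kappaB type motif, GGG and TTCC with any 3 bases between them. They come from RefSeq promoter windows of the build GRCr8, 250 bases before to 50 after the gene's start, and each printed stretch lies before the start, while the motif counts cover the whole window. Capitals mark the motif on either strand. The stretches are chr6:78597073-78597152 for Nfkbia, chr1:15543980-15544079 for Tnfaip3, chr14:17479352-17479451 for Cxcl1 and chr14:17596448-17596547 for Cxcl6, all on the minus strand, and chr14:15988866-15988965 on the plus strand for Cxcl10.
Nfkbia: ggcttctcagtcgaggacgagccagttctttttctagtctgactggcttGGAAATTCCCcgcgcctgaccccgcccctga
Tnfaip3: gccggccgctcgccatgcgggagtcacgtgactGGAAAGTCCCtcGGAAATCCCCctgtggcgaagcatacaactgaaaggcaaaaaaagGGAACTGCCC
Cxcl1: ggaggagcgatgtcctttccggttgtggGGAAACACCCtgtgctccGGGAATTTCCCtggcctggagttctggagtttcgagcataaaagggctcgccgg
Cxcl6: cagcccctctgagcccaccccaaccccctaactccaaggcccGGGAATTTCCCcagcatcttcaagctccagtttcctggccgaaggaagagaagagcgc
Cxcl10: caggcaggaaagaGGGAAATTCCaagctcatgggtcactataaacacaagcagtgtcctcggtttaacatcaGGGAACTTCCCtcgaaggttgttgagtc
The motif stood in 13 of 25 promoters of the NF-kappaB list that were found in the table (52%) and in 9 of 26 chemokine promoters (34.6%), against 5.36% of all 27457 promoters of that length. These 9 chemokine genes included Cxcl2, Ccl6, Ccl9 and Ccl20, which were not tested, and Cxcl11, which did not pass the test. The others were Cxcl1, Cxcl6 and Ccl7, which rose, and Cxcl10. Cxcl1 and Cxcl6 share the run GGGAATTTCC, while Cxcl10 has 2 places that match and its RNA was lower with BxTAM. A match is a description of the letters and no sign of binding.

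Secreted factors outside the chemokines moved in the same comparison. Of 41 tested cytokine, receptor and JAK-STAT genes, 20 were higher and 6 lower (median 0.23). Csf3, the neutrophil growth factor G-CSF, had 49.0, 42.8 and 51.3 CPM with MDM and 132, 126 and 119.7 CPM with BxTAM (log2 change 1.40 ± 0.07, adjusted p = 3.5e-12). Csf1, the macrophage growth factor, had 114, 121 and 121 CPM and 206, 202 and 199 CPM (log2 change 0.77 ± 0.04, adjusted p = 3.8e-12). Each BxTAM library was above all MDM libraries in both genes, and cells alone lay nearer to BxTAM for Csf1 (185 ± 2.17 CPM) than for Csf3 (84.3 ± 2.38 CPM). Among the falls were Pim3, a kinase induced by cytokine signals (-0.76 ± 0.06), and Bcl6, a transcriptional repressor (-0.59 ± 0.05). The prostaglandin list had 5 of 12 tested genes higher and none lower (median 0.34). By edgeR's test 1 member was lower at an unadjusted p under 0.05, and the DESeq2 and limma fits called 0 lower. Ptgs2, the inducible cyclooxygenase, rose from 12.6, 10.1 and 10.9 to 26.1, 24.0 and 23.8 CPM (log2 change 1.14 ± 0.09, adjusted p = 4.2e-09), Ptges, the prostaglandin E synthase that works with it, rose from 20.4 ± 1.19 to 38.4 ± 0.994 CPM (0.91 ± 0.08), and Slco2a1, the prostaglandin importer, from 5.82 ± 0.814 to 10.5 ± 0.698 CPM (0.85 ± 0.10). For Ptgs2 and Ptges the MDM libraries lay at the level of cells alone, 11.6 ± 0.979 and 22.0 ± 2.75 CPM.

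**Figure D2:**
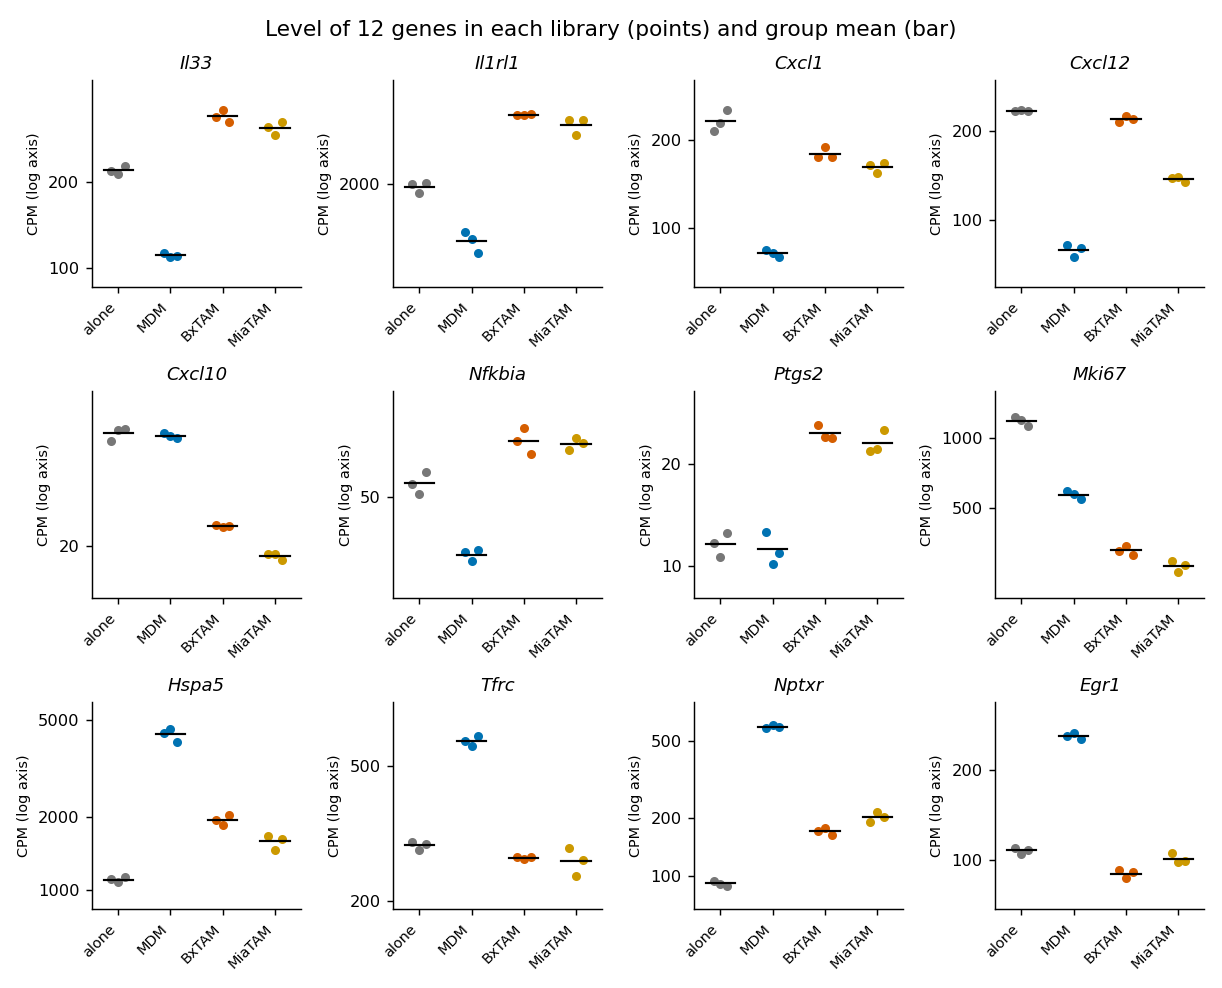
CPM of 12 genes in each of the 12 libraries (y axis, log scale; x axis, the 4 groups; points are libraries, bars their means). In every panel the 3 BxTAM libraries and the 3 MDM libraries do not overlap, and the level of cells alone lies above, between or below them depending on the gene: Cxcl12 of cells alone sits with BxTAM, Cxcl10 of cells alone with MDM.

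Most genes of mitosis fell. Of 83 tested genes of the G2 and mitosis list, 78 were lower and 2 higher with BxTAM (median -0.71), and all 13 mitotic kinesins were lower (median -0.84). Mki67, the proliferation antigen Ki-67, had 591, 575 and 542 CPM with MDM and 323, 341 and 311 CPM with BxTAM (log2 change -0.81 ± 0.05, adjusted p = 1.0e-10). Top2a, the DNA topoisomerase of dividing cells, had 328, 334 and 313 CPM and 154, 163 and 159 CPM (log2 change -1.03 ± 0.04, adjusted p = 1.6e-13). In cells alone both were higher than with MDM, at 1193 ± 53.4 and 617 ± 7.77 CPM, so the order was cells alone, then MDM, then BxTAM. The same order held for Ccnb1, the mitotic cyclin B1, at 140.0 ± 4.30, 77.2 ± 0.472 and 38.0 ± 1.31 CPM (-1.02 ± 0.05 for BxTAM against MDM). It held for Bub1b, a spindle checkpoint kinase, at 134 ± 4.85, 89.1 ± 2.67 and 46.3 ± 0.997 CPM (-0.94 ± 0.04). Tacc3, a spindle protein gene, fell by 0.87 ± 0.04, Birc5, which encodes survivin, by 1.13 ± 0.09, on the log2 scale. The kinesin gene Kif11 fell by 1.09 ± 0.04 and Kif20a fell by 1.19 ± 0.04. The 2 higher members were E2f1 (0.44 ± 0.07) and E2f2 (0.32 ± 0.12), transcription factors that act at the G1 to S transition, named after their values were seen. E2f2 kept its call only when MDM library 2 was the library left out, among the 6 that could be, with 0.28 to 0.34 in the other 5 cases.

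Promoters of 3 of these genes are shown for 2 motifs of late cell cycle promoters, the cell cycle homology region TTTGAA (CHR) and the CCAAT box, both in capitals on either strand. They are chr20:19265193-19265292 on the plus strand for Cdk1, the mitotic kinase, chr5:137255800-137255899 on the minus strand for Cdc20, an activator of the anaphase ligase, and chr10:84473094-84473173 on the minus strand for Top2a, from the same windows.
Cdk1: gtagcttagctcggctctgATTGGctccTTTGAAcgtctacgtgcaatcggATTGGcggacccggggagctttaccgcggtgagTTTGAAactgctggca
Cdc20: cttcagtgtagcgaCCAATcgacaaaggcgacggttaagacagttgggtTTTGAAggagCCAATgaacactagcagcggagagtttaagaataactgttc
Top2a: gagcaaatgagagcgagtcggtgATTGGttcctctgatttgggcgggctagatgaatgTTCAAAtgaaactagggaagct
TTTGAA stood in 46 of 67 promoters of the mitosis list (68.7%), in 6 of 12 of the mitotic kinesins (50%) and in 18.1% of all promoters in the table. CCAAT stood in 46 of 67 (68.7%) of the mitosis promoters against 37.7% of all. Cdk1 fell by 0.63 ± 0.04 and Cdc20 by 0.78 ± 0.04 on the log2 scale, both named here for their promoters and not by the rule for named genes.

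Genes of DNA replication were divided. Of 64 tested S phase genes, 14 were higher and 22 lower (median -0.05). The higher ones included subunits of the MCM helicase that opens replication origins: Mcm6 rose from 65.2 ± 2.63 to 103 ± 2.81 CPM (log2 change 0.66 ± 0.04, adjusted p = 1.9e-10), Mcm4 from 56.3 ± 3.64 to 82.4 ± 4.10 CPM (0.55 ± 0.05) and Mcm3 from 28.9 ± 0.945 to 40.9 ± 1.80 CPM (0.50 ± 0.05). All 3 stayed far below cells alone, at 253 ± 2.76, 283 ± 7.58 and 147 ± 1.57 CPM. The lower ones included Ticrr, a regulator of origin firing (-0.63 ± 0.06), and Impdh2, the rate-limiting enzyme of guanine nucleotide synthesis (-0.45 ± 0.03). Of 24 tested histone and chromatin genes, 11 were lower and 1 higher (median -0.19). H2afx, the histone variant that marks DNA breaks, fell from 32.5 ± 0.435 to 15.2 ± 2.06 CPM (log2 change -1.10 ± 0.08, adjusted p = 2.0e-09) and the histone chaperone gene Asf1b from 31.3 ± 0.764 to 18.3 ± 0.403 CPM (-0.78 ± 0.07). The 1 higher member was Hmga2, an architectural chromatin protein (38.5, 35.0 and 35.0 against 55.6, 64.6 and 58.5 CPM, log2 change 0.72 ± 0.07, adjusted p = 4.8e-08). Its relative Hmga1 had BxTAM library 3 far below the others, with 899, 1053 and 947 CPM with MDM and 751, 780.4 and 458 CPM with BxTAM (log2 change -0.54 ± 0.13, adjusted p = 0.00263), and its change was -0.33 without BxTAM library 3. Genes of ribosome assembly in the nucleolus were higher in 28 of 46 cases and lower in 2 (median 0.21), led by the helicase gene Ddx21 (0.54 ± 0.06) and Polr1a, the large subunit of RNA polymerase I (0.48 ± 0.05). The 2 lower ones were Npm1, which encodes nucleophosmin (-0.31 ± 0.04), and Utp14a (-0.24 ± 0.06), the latter named after its value was seen. Myc, a transcriptional driver of such genes, rose from 50.3 ± 3.43 to 68.8 ± 4.07 CPM (log2 change 0.45 ± 0.06, adjusted p = 1.5e-05).

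Chaperones of the endoplasmic reticulum fold secreted proteins and are induced when unfolded proteins gather there. Of 27 tested genes, 20 were lower and 1 higher with BxTAM (median -0.31). Hspa5, the chaperone BiP, had 4415, 4585 and 4067 CPM with MDM and 1933, 1855 and 2034 CPM with BxTAM, 2.24-fold lower (log2 change -1.17 ± 0.05, adjusted p = 1.2e-12). Hsp90b1, the chaperone GRP94, had 2735, 2746 and 2612 CPM and 1535, 1521 and 1496 CPM (log2 change -0.83 ± 0.04, adjusted p = 1.0e-11). Ero1l, an oxidase that supports disulfide formation, had 2513, 2225 and 2291 CPM and 1183, 1308 and 1212 CPM (log2 change -0.92 ± 0.06, adjusted p = 1.4e-10). All 3 genes separated the groups completely. With BxTAM, Hsp90b1 lay at the level of cells alone (1476 ± 29.0 CPM), whereas Hspa5 and Ero1l stayed above it (1105 ± 29.0 and 816 ± 63.4 CPM). Calr (-0.57 ± 0.04) and Pdia4 (-0.54 ± 0.03), a calcium-binding chaperone and a disulfide isomerase, fell as well. The 1 higher member was Dnajc10, a reductase that assists degradation (0.20 ± 0.04), named after its value was seen. Among 38 tested genes of degradation and secretory transport, 14 were lower and 4 higher (median -0.08; 1 higher without BxTAM library 2 and 2 without MDM library 2), with Xbp1, a transcription factor of the unfolded protein response, at -0.38 ± 0.04 and Herpud1 at -0.44 ± 0.06.

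The promoters of Hspa5, Hsp90b1 and Dnajc3, an inhibitor of the stress kinase PERK that fell by 0.28 ± 0.06, are shown for the endoplasmic reticulum stress element (ERSE), CCAAT and CCACG with any 9 bases between them, in capitals on either strand. Dnajc3 is named for its promoter. The stretches are chr3:38452936-38453015 on the plus strand, chr7:23012334-23012483 on the minus strand and chr15:102432517-102432566 on the plus strand.
Hspa5: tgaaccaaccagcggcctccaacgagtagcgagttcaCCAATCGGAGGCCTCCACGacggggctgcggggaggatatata
Hsp90b1: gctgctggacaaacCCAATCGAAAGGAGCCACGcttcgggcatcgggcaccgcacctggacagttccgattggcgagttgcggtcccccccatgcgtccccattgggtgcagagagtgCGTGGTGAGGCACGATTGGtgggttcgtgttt
Dnajc3: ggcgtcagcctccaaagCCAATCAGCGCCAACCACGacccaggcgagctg
Hsp90b1 has 2 copies of the element, one on each strand. It stood in 7 of 23 chaperone promoters in the table (30.4%) and in 21 of all 27457 (0.0765%).

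In the integrated stress response, ATF4 turns on genes of amino acid supply. Of 50 tested genes of the response, 24 were higher and 8 lower (median 0.21). Genes of amino acid transport, synthesis and tRNA charging held most of the rises, with 20 higher and 3 lower of 34 (median 0.25), while its transcription factors and regulators were divided, with 4 higher and 5 lower of 16 (median -0.04). Slc7a5, an amino acid transporter gene, rose from 34.5 ± 2.59 to 56.4 ± 3.17 CPM (log2 change 0.71 ± 0.06, adjusted p = 7.0e-09). Chac1, which breaks down glutathione, rose from 49.5 ± 1.35 to 75.0 ± 4.22 CPM (0.60 ± 0.05), and the tRNA synthetase genes Cars and Nars rose by 0.58 ± 0.04 and 0.41 ± 0.04. Cells alone lay above both co-cultures in each of the 4 genes, for example at 119 ± 4.07 CPM for Slc7a5. Ddit3, which encodes the stress factor CHOP, was among the 8 lower ones and fell from 206, 211 and 193 to 109, 104 and 109.6 CPM (log2 change -0.92 ± 0.06, adjusted p = 7.4e-10).

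Genes that the hypoxia-inducible factor (HIF) turns on and genes of glycolysis were mostly lower. Of 35 tested genes of the HIF list, which also holds HIF subunit genes such as Hif1a, 25 were lower and 3 higher (median -0.30). Of 27 glycolysis genes 17 were lower and 2 higher (median -0.19). Tfrc, the transferrin receptor that imports iron, had 592, 575 and 615 CPM with MDM and 270.4, 266 and 269.8 CPM with BxTAM (log2 change -1.14 ± 0.05, adjusted p = 1.2e-12), with cells alone near the BxTAM level (299, 283 and 295 CPM). Higd1a, a mitochondrial protein gene induced by hypoxia, fell from 114, 119.8 and 93.1 to 53.8, 52.6 and 51.2 CPM (-1.05 ± 0.08), Ndrg1 from 549 ± 45.8 to 352 ± 20.1 CPM (-0.64 ± 0.05) and the histone demethylase gene Kdm3a from 210.1 ± 6.64 to 151 ± 4.03 CPM (-0.48 ± 0.04). In glycolysis, Gbe1, which branches glycogen, fell from 189, 204 and 182 to 97.5, 105 and 94.8 CPM (log2 change -0.95 ± 0.05, adjusted p = 1.7e-11), the glucose transporter gene Slc2a1 from 885 ± 69.7 to 599 ± 32.3 CPM (-0.56 ± 0.06) and the enolase gene Eno1 from 1713 ± 59.0 to 1297 ± 29.2 CPM (-0.40 ± 0.04). The exceptions were small for the 2 glycolysis genes, Ldha, lactate dehydrogenase A (0.15 ± 0.04), and the lactate transporter Slc16a1 (0.17 ± 0.04). The 3 higher HIF genes were Hif1a itself (0.23 ± 0.04), Angptl4, an inhibitor of lipoprotein lipase (0.38 ± 0.05), and Lox, a collagen cross-linking enzyme. Lox rested on uneven MDM libraries, at 122, 122 and 355 CPM against 329, 357 and 348 CPM with BxTAM (log2 change 0.78 ± 0.24, adjusted p = 0.0164), since MDM library 3 lay within the BxTAM range. The change was 1.5 without MDM library 3, and it was not called without MDM library 1 or 2 (0.52 in both) or by DESeq2 (0.79). These 5 genes were named after their values were seen.

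The promoters of Tfrc (chr11:81690319-81690378, minus strand) and Ldha (chr1:106507982-106508041, plus strand) are shown because both hold the hypoxia response core ACGTG, in capitals on either strand, while Tfrc fell and Ldha rose.
Tfrc: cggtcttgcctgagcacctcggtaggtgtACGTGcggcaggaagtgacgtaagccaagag
Ldha: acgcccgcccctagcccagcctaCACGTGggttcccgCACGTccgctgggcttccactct
The core stood in 15 of 28 promoters of the HIF list (53.6%), 14 of 26 of the glycolysis list (53.8%) and 19.7% of all promoters.

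**Figure D3:**
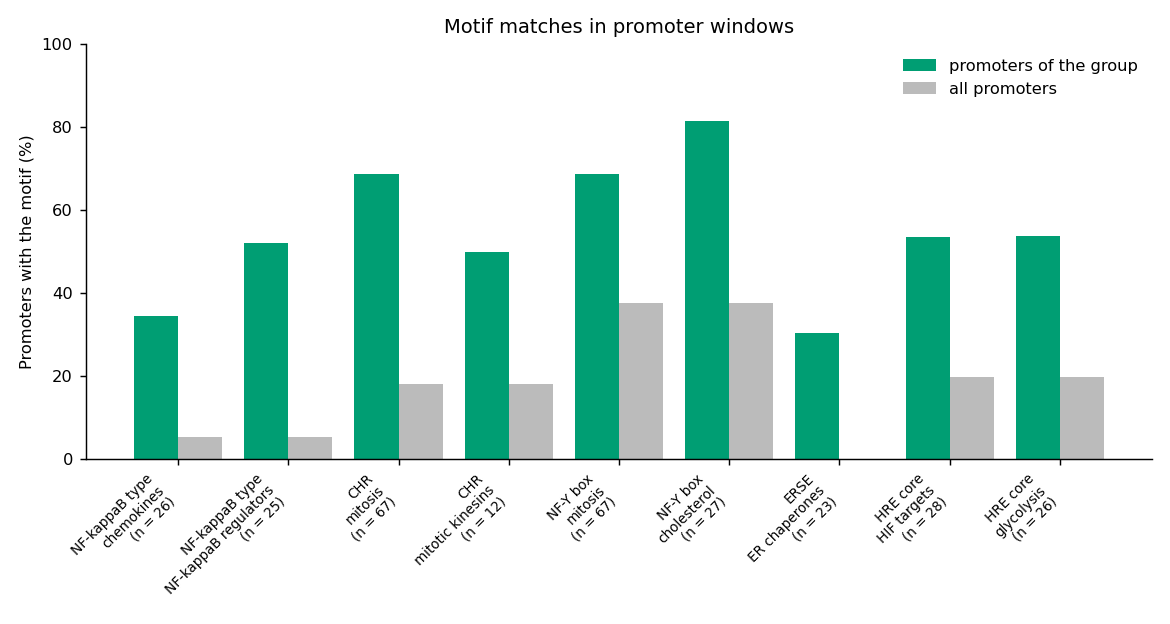
Share of promoters (y axis, %) that hold a motif on either strand within 250 bases before to 50 after the start, for groups of genes (coloured bars) beside all 27457 promoters in the table (grey bars). NF-Y box stands for the CCAAT box, the numbers of promoters per group are 12 to 67, and the grey bar of ERSE, at 0.0765%, is too low to be seen; the CHR motif TTTGAA stood in 68.7% of mitosis promoters against 18.1% of all.

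The iron list, Tfrc included, was divided, with 5 of 19 tested genes higher and 4 lower. Fbxl5, the iron sensor that degrades the factors stabilising Tfrc mRNA, rose from 87.2 ± 3.59 to 125 ± 4.09 CPM (log2 change 0.52 ± 0.04, adjusted p = 5.9e-09), and Fth1, the ferritin heavy chain, rose from 847 ± 48.4 to 1029 ± 36.2 CPM (0.28 ± 0.05). Ftl1, the ferritin light chain, fell from 1043 ± 67.5 to 799 ± 47.9 CPM (-0.38 ± 0.05).

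Genes of sterol and fatty acid synthesis were higher more often than lower. Of 35 tested cholesterol genes, 19 were higher and 4 lower (median 0.13). Acat2, which makes acetoacetyl-CoA at the start of the pathway, had 17.6, 16.6 and 16.8 CPM with MDM and 37.0, 34.9 and 34.5 CPM with BxTAM (log2 change 1.06 ± 0.08, adjusted p = 9.2e-10). Msmo1, a sterol demethylation enzyme, rose from 561 ± 12.9 to 927 ± 29.9 CPM (0.73 ± 0.04), Sqle, squalene epoxidase, from 97.0 ± 1.98 to 142 ± 0.839 CPM (0.55 ± 0.04) and Sc5d from 69.1 ± 3.85 to 103 ± 3.92 CPM (0.57 ± 0.05). The 4 lower ones, named after their values were seen, were not synthesis enzymes apart from Lbr (-0.27 ± 0.07): they were Insig2 (-0.31 ± 0.07), a retention factor of SREBP, Npc1 (-0.13 ± 0.04), the lysosomal cholesterol exporter, and Mylip (-0.42 ± 0.10), a ligase that degrades the LDL receptor. Npc1 was not called without BxTAM library 2 or without MDM library 1 or 2 (-0.10 to -0.12). The sterol regulatory motif TCACNCCAC stood in none of 27 cholesterol promoters in the table and in 1.13% of all, which says only that these letters are not in these windows. The CCAAT box stood in 22 of 27 cholesterol promoters (81.5%). Of 48 tested genes of fatty acid metabolism and LXR targets, 21 were higher and 3 lower (median 0.11). Acss2, which makes acetyl-CoA from acetate, rose from 114, 121 and 120.1 to 195, 199 and 197 CPM (log2 change 0.74 ± 0.04, adjusted p = 5.4e-12), and Scd2, a stearoyl-CoA desaturase, from 4898 ± 137 to 6600 ± 93.8 CPM (0.43 ± 0.04). The lysosomal list was divided, with 8 of 47 higher and 15 lower. Ctsd, the lysosomal protease cathepsin D, rose, with 1920, 1820 and 2034 CPM with MDM and 3422, 3255 and 3242 CPM with BxTAM (log2 change 0.78 ± 0.04, adjusted p = 1.3e-11), whereas the hydrolase gene Gusb (-0.42 ± 0.05) fell.

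**Figure D4:**
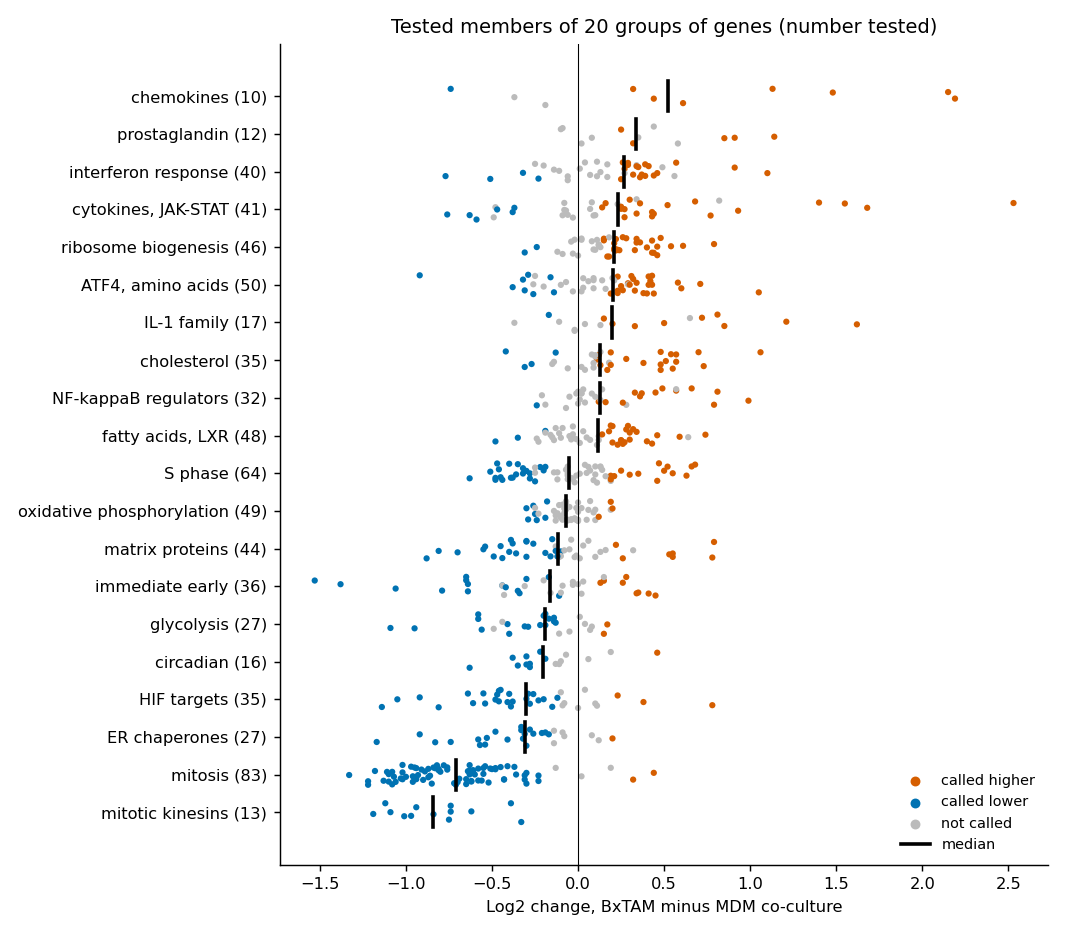
Log2 change between BxTAM and MDM co-culture (x axis) of every tested member of 20 groups of genes (rows). Points are genes, orange or blue where called higher or lower and grey where not, and the black bar is the group's median; the mitotic kinesins and mitosis genes lie almost wholly below 0, and the chemokines have the highest median, 0.52.

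Early response and matrix genes included some of the clearest falls. Egr1, an immediate early transcription factor, had 259.6, 266 and 254 CPM with MDM and 92.8, 86.8 and 90.9 CPM with BxTAM (log2 change -1.53 ± 0.04, adjusted p = 3.2e-16), and cells alone stood near BxTAM (110.1, 105 and 108 CPM). Of 36 tested immediate early genes, 15 were lower and 8 higher (median -0.16). Ctgf and Cyr61, matricellular genes driven by the mechanosensitive YAP and TEAD factors, fell from 18.5 ± 0.272 to 7.11 ± 0.360 CPM (log2 change -1.38 ± 0.10, adjusted p = 1.2e-09) and from 92.7 ± 6.53 to 53.5 ± 3.87 CPM (-0.79 ± 0.06). On the YAP and TEAD list, 11 of 27 tested members were higher and 3 lower, among the higher ones Myof, a membrane repair protein (0.32 ± 0.04), and Nt5e, given above. Spp1, the secreted matrix protein osteopontin, had 2026, 1975 and 1979 CPM with MDM and 1002, 1005 and 961 CPM with BxTAM (log2 change -1.01 ± 0.05, adjusted p = 2.5e-12). It was 2.01-fold lower with BxTAM and still above cells alone, which had 760.0, 745 and 758 CPM. Of 44 tested genes of collagens, laminins and other matrix proteins, 22 were lower and 7 higher (median -0.12). Fbln1, a fibulin of basement membranes, fell from 76.9 ± 1.17 to 44.0 ± 2.81 CPM (-0.81 ± 0.06), the related Fbln2 from 29.4 ± 0.220 to 16.0 ± 0.555 CPM (-0.88 ± 0.07) and the collagen chaperone gene Serpinh1 from 561 ± 14.8 to 399.7 ± 4.88 CPM (-0.49 ± 0.04). The cross-linking enzyme gene Loxl1 rose from 321 ± 14.5 to 471 ± 14.5 CPM (0.55 ± 0.05).

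Proteases that cut matrix and cell surface proteins were higher in 11 of 30 tested cases and lower in 3 (median 0.13). Adam19, a membrane sheddase that cuts neuregulin, rose from 45.2, 51.4 and 50.1 to 88.8, 90.7 and 90.7 CPM (log2 change 0.88 ± 0.06, adjusted p = 1.8e-10), and Adam17, the sheddase of TNF and EGF-family ligands, from 70.0 ± 2.99 to 86.4 ± 1.27 CPM (0.30 ± 0.05). Mmp13, a collagenase, went the other way, at 568, 503 and 535 CPM with MDM and 259.7, 273 and 253 CPM with BxTAM (log2 change -1.03 ± 0.07, adjusted p = 2.4e-10). In the plasminogen system 8 of 14 tested genes were higher and 3 lower (median 0.23): Plau, urokinase, rose from 68.4 ± 2.13 to 87.4 ± 1.26 CPM (0.36 ± 0.05) and F3, tissue factor, from 49.2 ± 3.13 to 65.3 ± 3.40 CPM (0.41 ± 0.06). Dusp7, a phosphatase that ends ERK signals, rose from 141, 141 and 144 to 239, 235 and 237 CPM (log2 change 0.74 ± 0.04, adjusted p = 9.0e-12), whereas its list was divided (6 of 24 higher and 5 lower, or 3 lower without BxTAM library 2 or MDM library 3). Il1rl1, given above, is on that list too and counts among its higher genes.

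Retinoid genes moved in opposite directions within the list, with 2 of 13 tested higher and 6 lower. Dhrs9, which oxidises retinol toward retinaldehyde, had 137, 134 and 139 CPM with MDM and 259, 271 and 255 CPM with BxTAM (log2 change 0.93 ± 0.04, adjusted p = 2.4e-12), opposite to the fall of Dhrs3 given above. Rara, the retinoic acid receptor alpha, fell from 133 ± 3.39 to 102 ± 1.88 CPM (-0.38 ± 0.04). Of 16 tested circadian genes, 9 were lower and 1 higher (median -0.21). Nr1d1, the nuclear receptor REV-ERB alpha, fell from 27.8 ± 1.80 to 17.9 ± 1.41 CPM (log2 change -0.63 ± 0.09, adjusted p = 9.1e-06), Arntl, the clock activator BMAL1, by 0.28 ± 0.06, Per2 by 0.30 ± 0.06 and Dbp by 0.35 ± 0.08. Npas2, a partner of Arntl, was the 1 that rose, from 31.5 ± 1.69 to 43.2 ± 0.644 CPM (0.46 ± 0.06). The labels give no time of harvest. Interferon response genes were higher in 18 of 40 tested cases and lower in 4 (median 0.26). Ifit2 rose from 10.4, 7.27 and 9.80 to 19.0, 20.5 and 19.6 CPM (log2 change 1.10 ± 0.10, adjusted p = 6.8e-08) and Gbp2, a guanylate-binding protein gene, from 82.5 ± 2.77 to 107 ± 7.61 CPM (0.37 ± 0.05). The 4 lower ones were Oasl (-0.77 ± 0.06), Rsad2 (-0.51 ± 0.07), Irf7 (-0.32 ± 0.08) and Bst2 (-0.23 ± 0.07), of which Rsad2 and Irf7 were named after their values were seen. Bst2 was not called without BxTAM library 2 (-0.16).

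Genes of the mitochondrial chromosome moved unequally. Of 11 tested genes, 5 were higher and 1 lower, and 8 were higher with only the 2 groups in the fit. Mt-nd4 rose from 659 ± 39.3 to 989 ± 7.13 CPM (log2 change 0.59 ± 0.05, adjusted p = 2.9e-08), Mt-nd4l by 0.57 ± 0.06 and Mt-nd5 by 0.52 ± 0.06, subunit genes of respiratory complex I that are neighbours on the heavy-strand transcript. Mt-nd6, the 1 protein gene of the light strand, fell from 50.6 ± 2.21 to 37.3 ± 1.75 CPM (log2 change -0.44 ± 0.08, adjusted p = 2.3e-04). Whether the counting used strand is not stated, so overlapping and antisense genes such as these, and families that may share reads such as the Cxcl, Clca and histone genes, carry that doubt. Nuclear genes of oxidative phosphorylation were mostly not called, with 3 of 49 higher and 7 lower (median -0.07), and 3 lower without BxTAM library 3.

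Of 11 tested FGF ligand, receptor and adaptor genes none was called higher and 3 were lower, Fgf11 (-0.60 ± 0.16), Fgfr3 (-0.48 ± 0.18) and Frs3 (-0.25 ± 0.08). At an unadjusted p under 0.05 by edgeR's test 1 was higher, and DESeq2 called 0 and limma on log2(FPKM + 1) 1 higher. Without MDM library 1 there were 1 higher and 1 lower, and without BxTAM library 3 there was 1 lower. Fgfr3 was not called without BxTAM library 1 or 3 or MDM library 1 or 3 (-0.34 to -0.51), nor Frs3 without BxTAM library 2 or 3 or MDM library 1 or 2 (-0.23 to -0.24). Fgf2 (3.46, 3.01 and 3.22 CPM with MDM and 3.43, 4.20 and 3.85 CPM with BxTAM, log2 change 0.24 ± 0.15, adjusted p = 0.235) and Fgfr1 (2.08, 2.33 and 2.33 and 2.84, 2.36 and 2.36 CPM, log2 change 0.17 ± 0.17, adjusted p = 0.494) did not pass the test, and the groups overlapped for Fgf2 but not for Fgfr1. Of 20 tested neurotrophic genes, 6 were higher and 5 lower. Bdnf, a neurotrophin gene, rose from 30.8 ± 3.01 to 41.7 ± 1.11 CPM (0.43 ± 0.07), and Ptprz1, a receptor phosphatase of glial cells, from 25.0 ± 1.32 to 39.5 ± 2.90 CPM (0.66 ± 0.08). Of 49 axon guidance genes, 10 were higher and 8 lower. Sema3c (0.44 ± 0.04), Slit2 (0.37 ± 0.04) and Efnb2 (0.41 ± 0.05) were among the higher ones and Sema7a (-0.53 ± 0.08) among the lower. Of 27 Wnt genes, 1 was higher, Wnt4 (0.45 ± 0.11), and 7 were lower, among them the receptor gene Lgr6 (-1.09 ± 0.28). Without BxTAM library 3 the lower Wnt genes numbered 4, and without BxTAM library 1 the higher ones 2. The neuronal and synaptic list had 6 lower and 0 higher genes of 14 tested (1 higher at an unadjusted p under 0.05 by edgeR's test, 0 by DESeq2 and limma), and among them were Nptxr, given above, and the vesicle gene Syt11 (-0.40 ± 0.06).

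In the TGF-beta list 8 of 39 were higher and 9 lower: Ltbp3, a binding protein of latent TGF-beta, fell from 85.9 ± 3.43 to 48.8 ± 2.57 CPM (log2 change -0.81 ± 0.06, adjusted p = 5.3e-10), and Tgfb1i1, a focal adhesion protein gene, rose (0.56 ± 0.07). In the actin and SRF list 7 of 34 were higher and 10 lower (6 lower without BxTAM library 3): Des, desmin, rose from 5.42, 6.42 and 5.69 to 11.0, 12.5 and 10.8 CPM (log2 change 0.97 ± 0.11, adjusted p = 9.0e-07) and Tagln, transgelin, fell from 8.07, 9.54 and 7.37 to 3.76, 3.85 and 4.89 CPM (log2 change -0.99 ± 0.18, adjusted p = 2.1e-04). Igfbp6, which binds IGF-2, fell from 59.8 ± 2.18 to 31.1 ± 1.26 CPM (-0.94 ± 0.06, list 3 of 19 higher and 6 lower). Sat1, the enzyme that acetylates polyamines for export, fell from 133, 127 and 131 to 67.9, 60.0 and 70.9 CPM (log2 change -0.98 ± 0.07, adjusted p = 8.0e-10), with cells alone at 47.3 ± 1.10 CPM (list 6 of 19 higher and 6 lower, 3 higher without MDM library 2). Of 34 apoptosis genes 15 were higher and 7 lower (median 0.21): Pmaip1, the BH3-only gene NOXA, rose (0.71 ± 0.06), and Apaf1, of the apoptosome, fell (-0.41 ± 0.05). Of 31 proteasome genes 10 were higher and 1 lower, Psma7 (-0.22 ± 0.04), with 6 higher without MDM library 2. Fst, follistatin, which binds activins, rose from 16.7 ± 0.878 to 28.4 ± 1.79 CPM (0.76 ± 0.07, list 4 of 13 higher and 1 lower). Ereg, the EGF receptor ligand epiregulin, rose from 7.34 ± 0.175 to 12.1 ± 0.559 CPM (0.72 ± 0.09, list 4 of 16 higher and 2 lower, with 0 or 1 lower when any 1 of the 6 libraries was left out). Dll1, a Notch ligand gene, rose (0.94 ± 0.14), and Hes1, a Notch target, fell from 3.98, 4.20 and 3.31 to 1.99, 2.07 and 2.09 CPM (log2 change -0.89 ± 0.16, adjusted p = 1.8e-04, list 3 of 14 higher and 5 lower, or 2 to 3 lower without BxTAM library 2 or any 1 MDM library). The integrin and cadherin list had 13 of 31 higher and 6 lower, with the laminin receptor gene Itgb4 among the higher ones (0.30 ± 0.04) and Itgb5 among the lower (-0.33 ± 0.04). Clu, clusterin, rose from 361 ± 3.52 to 548 ± 25.3 CPM (0.60 ± 0.04), and C3, the central complement component, fell (-0.78 ± 0.18, list 4 of 10 higher and 1 lower). The metallothionein gene Mt2A, whose close relatives may share its reads, fell (-0.72 ± 0.05, NRF2 and antioxidant list 11 of 45 higher and 16 lower).

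The 2 kinds of TAM were set against each other through BxTAM against MiaTAM co-culture, which shares the 3 BxTAM libraries with the comparison above. Of the 12360 genes 2997 (24.2%) were called, 1641 (13.3%) higher and 1356 (11.0%) lower with BxTAM. At the same threshold 164 genes (1.33%) differed by 1.5-fold or more, and 5 higher and 28 lower genes passed 2-fold. The lean toward higher genes depended on the scaling: upper-quartile factors gave 1406 higher and 1621 lower. The number called was 1978 without BxTAM library 2, 1976 without BxTAM library 3 and 1933 without MiaTAM library 2. The mitosis list had 15 higher and 11 lower of 83 (median -0.01) and the mitotic kinesins 2 higher and 4 lower of 13. The chemokine list had 5 higher and 1 lower of 10 (median 0.23), the HIF list 11 higher and 2 lower of 35 (median 0.08), the ATF4 list 18 higher and 2 lower of 50 (median 0.06) and the chaperone list 9 higher and 4 lower of 27 (median 0.05). Il1rl1 (0.10 ± 0.05), Nfkbia (0.03 ± 0.06), Ptgs2 (0.10 ± 0.08) and Tfrc (0.03 ± 0.05) did not pass this test. Of 35 cholesterol genes, 15 were higher and 3 lower (median 0.12). Idi1, an isomerase of the isoprenoid pathway, had 97.7, 102 and 107 CPM with BxTAM and 66.1, 51.6 and 62.6 CPM with MiaTAM (log2 change 0.76 ± 0.07, adjusted p = 3.4e-07). Hmgcs1, the HMG-CoA synthase, had 203, 211 and 209.5 CPM with BxTAM and 142, 130.4 and 140.3 CPM with MiaTAM (log2 change 0.59 ± 0.04, adjusted p = 3.9e-08). Acat2 held 25.6, 22.0 and 21.5 CPM with MiaTAM, below the BxTAM values given above (log2 change 0.62 ± 0.07, adjusted p = 1.3e-05). In each the BxTAM libraries were the high ones and the groups did not overlap. Idi1 and Hmgcs1 were named for this comparison after their values were seen. Of 40 interferon genes, 13 were higher and 1 lower (median 0.21). Of 49 nuclear oxidative phosphorylation genes, 26 were lower and 0 higher (median -0.14, with 2 higher at an unadjusted p under 0.05 by edgeR's test and 0 by DESeq2 and limma). The NRF2 and antioxidant list had 18 of 45 lower and 1 higher.

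Single genes differed by more. Cxcl12 had 139, 140.5 and 135 CPM with MiaTAM, between MDM and BxTAM (log2 change 0.68 ± 0.04, adjusted p = 1.2e-09 for BxTAM against MiaTAM). Gstp1, a glutathione transferase, had 600.3, 656 and 668 CPM with MDM, 416, 409 and 404 CPM with BxTAM and 661, 744 and 692 CPM with MiaTAM (log2 change -0.65 ± 0.05, adjusted p = 8.3e-10 against MDM, log2 change -0.77 ± 0.05, adjusted p = 1.2e-09 against MiaTAM). BxTAM was the lowest of the 3 co-cultures. Cldn4, a tight junction gene on the epithelial marker list, stood at 12.5, 13.6 and 14.1 CPM with MDM, at 10.2 ± 0.254 CPM with BxTAM and at 21.3, 23.4 and 21.1 CPM with MiaTAM (log2 change -1.10 ± 0.08, adjusted p = 1.7e-08 against MiaTAM). Col1a1, a fibrillar collagen gene, fell from 72.6, 74.6 and 73.9 CPM with MDM to 53.4, 51.3 and 47.3 CPM with BxTAM (log2 change -0.54 ± 0.06, adjusted p = 6.8e-07) and held 73.7, 82.1 and 69.1 CPM with MiaTAM (log2 change -0.56 ± 0.06, adjusted p = 5.3e-06 against MiaTAM). Fbln2 held 26.6 ± 1.98 CPM with MiaTAM (log2 change -0.73 ± 0.07, adjusted p = 2.1e-06). In these 3 genes the MDM and MiaTAM libraries lay above BxTAM. Il1rn, which rose with BxTAM against MDM, was higher still with MiaTAM, at 45.9, 46.0 and 51.6 CPM (log2 change -0.65 ± 0.08, adjusted p = 2.5e-05). Fgfr1 held 3.96, 4.28 and 4.07 CPM with MiaTAM (log2 change -0.70 ± 0.15, adjusted p = 0.00241) and Hes1 3.96, 3.62 and 3.80 CPM (log2 change -0.89 ± 0.16, adjusted p = 6.0e-04). Pmepa1, at 2.66, 2.59 and 1.84 CPM with MiaTAM, was lower with BxTAM than with MiaTAM as well (log2 change -2.81 ± 0.31, adjusted p = 1.0e-05). The 9 epithelial markers, 5 of them tested, summed to 29.9 to 33.9 CPM with BxTAM, 40.0 to 42.6 CPM with MDM, 44.2 to 46.5 CPM with MiaTAM and 37.7 to 39.1 CPM in cells alone. The 8 fibroblast markers, to which Col1a1 belongs, summed to 443 to 469 CPM with BxTAM, 509 to 536 CPM with MDM, 493 to 528 CPM with MiaTAM and, lowest, 389 to 399.8 CPM in cells alone. The part of such cells in these differences was not tested.

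**Figure D5:**
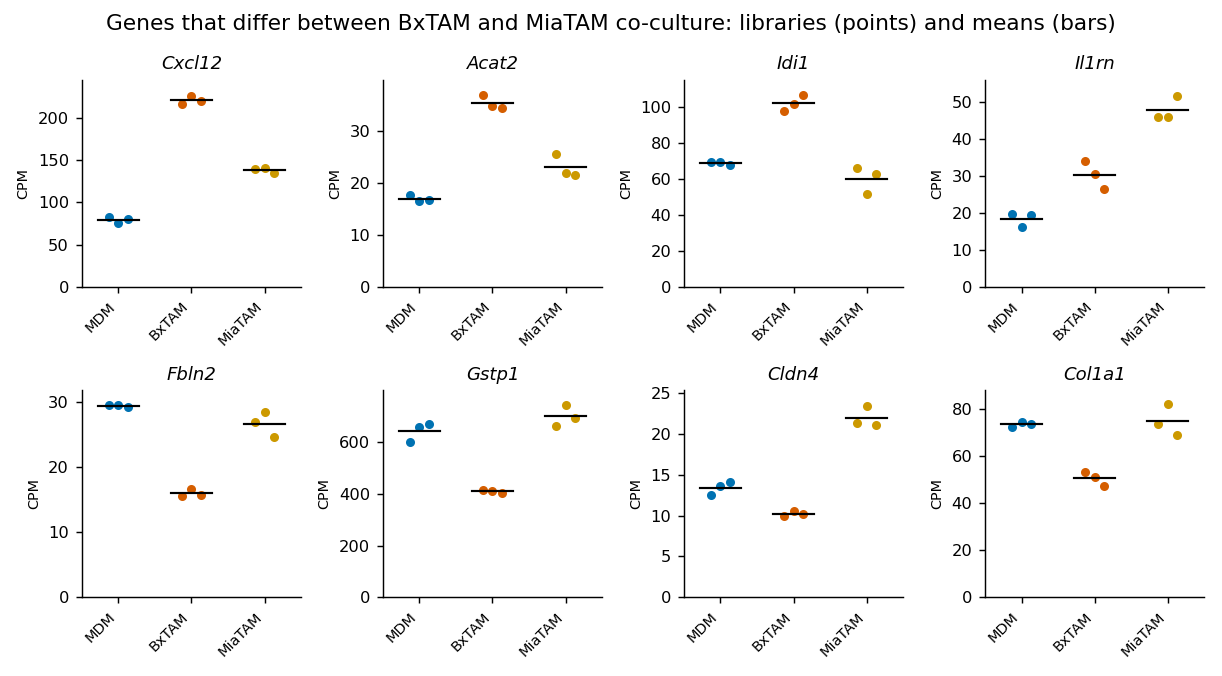
CPM of 8 genes in the MDM, BxTAM and MiaTAM libraries (y axis, linear from 0; points are libraries, bars their means). Cxcl12, Acat2 and Idi1 are highest with BxTAM, Fbln2, Gstp1, Cldn4 and Col1a1 are lowest with BxTAM, and Il1rn is highest with MiaTAM.

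Against Schwann cells alone, BxTAM co-culture differed in 7524 of 12360 genes (60.9%), again with shared BxTAM libraries. The levels of the genes above fell into different orders. Nptxr, Hspa5, Spp1 and Ddit3 were above cells alone with BxTAM (0.89 ± 0.05, 0.81 ± 0.05, 0.39 ± 0.05 and 0.90 ± 0.07) and higher again with MDM. Il33, Il1rl1, Nt5e, Zc3h12a and Ptgs2 exceeded both MDM and cells alone (0.63 ± 0.05, 0.69 ± 0.05, 2.31 ± 0.13, 0.74 ± 0.06 and 1.09 ± 0.09 against cells alone). Cxcl1 (-0.37 ± 0.05), Slc7a5 (-1.08 ± 0.05) and Mcm6 (-1.30 ± 0.04) rose against MDM and remained below cells alone, and Top2a (-1.96 ± 0.04), Mki67 (-1.88 ± 0.05) and Kif11 (-1.84 ± 0.04) were below both.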

How the data were processed

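RNA of rat Schwann cells, alone or in co-culture, was sequenced in 12 stranded mRNA libraries, per the labels' protocols. The submitters' processing notes name CASAVA, HISAT2, StringTie 1.3.0 and the build Rnor_6.0. The sources used here state neither the strand setting nor the gene annotation. The authors deposited a raw count for each of 30957 genes and library, and FPKM values scaled by gene length and library total. Columns were matched to samples by the description labels.

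The filter filterByExpr, run by group, kept 12360 genes. TMM-scaled counts of all 12 libraries were fitted together by edgeR 4.0.16 in R 4.3.3 (quasi-likelihood test, Benjamini-Hochberg adjustment, 8 residual degrees of freedom). In a simulation of BxTAM against MDM co-culture (12313 genes) the test called 17, 46, 50 and 50 of 50 genes changed by 1.2-fold, 1.5-fold, 2-fold and 4-fold, and 6 of 12113 unchanged genes. The simulation gave every gene the same dispersion and changed far fewer genes than were called in the data. Its changed genes were drawn only from those above a minimum count, so these numbers need not hold for the data.

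The members and the 66 gene lists were chosen with earlier results of these data known. Of 2052 symbols, 1944 matched by symbol and 31 by synonym, 50 matched none, 26 stood on several genes and 1 repeated a gene of its list. The text names the 15 largest rises and 15 largest falls among called genes that carried a usable symbol, reached 1 CPM in the group where they were higher and separated the libraries, for each list up to 5 tested members with the smallest p and the member with the highest mean level, some genes of interest by name (such as Il33, Gfap, Fgf2 and Col1a1), and genes marked as named after their values were seen. Promoters came from RefSeq windows of GRCr8. Alternatives were other scaling factors, DESeq2 1.42.0, limma 3.58.1 on log2(FPKM + 1), no filter, 2 groups per fit, a replicate block and leaving out each library in turn. Some genes are not reported here.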

Additional observations from a re-analysis of the deposited data

Results flagged for a closer look

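For 17 of the 198 genes named and tested, the change against MDM co-culture differed between the BxPC-3 and the MIA PaCa-2 kind of macrophage. The test was edgeR's quasi-likelihood test of BxTAM against MiaTAM co-culture, which is the same contrast since both kinds share the MDM libraries, with adjusted p under 0.05 over all genes tested and a difference of at least 1.5-fold, which 164 of all 12360 genes (1.33%) met. All values here are log2 differences, BxTAM minus MiaTAM, ± standard error for 3 libraries against 3. In 10 genes the level was lower with BxTAM and in 7 it was higher.

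The lower ones were Pmepa1 (-2.81 ± 0.31), Actn3 (-1.70 ± 0.28), Fa2h (-1.37 ± 0.36), Cldn4 (-1.10 ± 0.08), Sec1 (-1.03 ± 0.36), Hes1 (-0.89 ± 0.16), Gstp1 (-0.77 ± 0.05), Fbln2 (-0.73 ± 0.07), Fgfr1 (-0.70 ± 0.15) and Il1rn (-0.65 ± 0.08). The higher ones were Naip6 (0.77 ± 0.26), Idi1 (0.76 ± 0.07), Cxcl12 (0.68 ± 0.04), Sult1c2a (0.64 ± 0.20), Acat2 (0.62 ± 0.07), Cxcl6 (0.61 ± 0.16) and Hmgcs1 (0.59 ± 0.04). Actn3 encodes a muscle-type alpha-actinin, Fa2h the fatty acid 2-hydroxylase of myelin lipids, and Acat2, Hmgcs1 and Idi1 act early in sterol synthesis. Idi1 and Hmgcs1 were chosen for this comparison after their values were seen.

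For 4 of the 17 the call was lost when 1 library was left out. Naip6 was not called without BxTAM library 1 (0.71) or 2 (0.66) or MiaTAM library 1 (0.80) or 2 (0.64), nor by limma on log2(FPKM + 1) (0.14). Sec1 was not called without BxTAM library 2 or 3 or any 1 MiaTAM library (-0.83 to -1.09), nor without the filter or with 2 groups in the fit (-1.03 in both). Sult1c2a was not called without BxTAM library 1 (0.55) or MiaTAM library 2 (0.58) or 3 (0.47), and Cxcl6 not without MiaTAM library 2 (0.43). The other 13 stayed called under every alternative listed with the processing that gave them an adjusted p. DESeq2 gave one to only 10258 genes in this comparison, and a setting without one was passed over. The cause of these differences was not tested.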

How the results depend on the processing

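The number of genes called against MDM co-culture, 4291, ran from 3644 (DESeq2) to 4642 (only the 2 groups in the fit) under 7 other settings, and from 3415 to 3803 when 1 of the 6 libraries was left out. Against MiaTAM co-culture, 2997 became 2554 to 3027 and, with 1 library left out, 1933 to 3113: it was 1978 without BxTAM library 2, 1976 without BxTAM library 3 and 1933 without MiaTAM library 2. Leaving out a library also leaves fewer samples. Against cells alone, 7524 became 6796 to 7607, and 6918 to 7104 with 1 library left out. With the replicate number as a block the 3 counts were 4275, 2993 and 7496. No sign was seen that the numbers pair the libraries, though so few values cannot exclude it. Deviations of same-numbered MDM and BxTAM libraries correlated at 0.0259, 0.0382 and -0.0331, and those of unlike-numbered ones at -0.102 to 0.0815. The block ended the call of Fgfr3 against MDM (-0.48, adjusted p = 0.057) and of Sec1 against MiaTAM (-1.03, adjusted p = 0.052), both from edgeR's fit.

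Of the 198 genes named and tested against MDM, 188 kept their direction and their side of the threshold in every setting that gave them an adjusted p. The other 10 were Gfap, which was not called whose change turned to -0.03 without BxTAM library 2 and -0.00 without MDM library 1 and ran up to 0.31 on leaving out a library, and Birc2, Bst2, E2f2, Fgfr3, Frs3, Lox, Npc1, Padi2 and Slx4ip, which lost the call in at least 1 setting. Against MiaTAM, 61 of 91 genes kept their side of the threshold in every setting that gave them an adjusted p, and none turned direction there. Each group has 3 libraries, fold changes of genes near 1 CPM carry wide errors, and the change on the log2(FPKM + 1) scale understates that of low genes. The libraries are bulk RNA and the share of macrophage RNA in them was not tested, so no RNA level was assigned to one kind of cell. The labels do not tie the libraries of a group to separate cultures.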
